A study of Mus musculus with 15 samples.

Results

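The comparison described here set mouse embryonic fibroblasts (MEFs) of generation 5 against those of generation 1 in mice that lacked telomerase RNA and the Wrn helicase and carried wild-type p53. Its members were the 3 libraries titled G5DM and the 2 titled G1DM, 5 of the 15 libraries of the series, and the 12516 of 54495 listed genes with at least 1 FPKM in at least 2 of these 5. FPKM counts the sequenced fragments of a gene per kilobase of its length at a common library size, so levels can be set side by side between genes. All 5 libraries had the genotype mTR-/-Wrn-/-p53WT, so the control cells lacked both genes too. The 2 G3DM libraries, of the same genotype at generation 3, are given for their levels only and entered no test of generation. Cells came from e13.5 embryos and were cultured in DMEM with 10% serum at 5% CO2 and 3% O2. Which parts of the embryo were used, the number of passages, and whether replicates were separate embryos are not given in the sources used here, so p-values measure the spread between these libraries, which may be technical. The design asked how these cells differ with generation, and its title points to telomere replication and to the complexes DREAM and MMB.

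Telomerase adds telomere repeats with the RNA Terc (mTR) as its template, and mice without it are bred for several generations because their telomeres shorten from one generation to the next. WRN is a RecQ helicase, lost in the premature ageing disorder Werner syndrome, that helps replicate telomeres and other structured DNA. Short telomeres are known to engage p53, which induces Cdkn1a and, through the DREAM complex, represses cell cycle genes. Fibroblasts also keep a record of where in the body they arose, most plainly in the Hox genes, whose paralogue groups are numbered in the order in which they are used from head to tail and from shoulder to fingertip.

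The 5 libraries held 18581227 to 25933487 reads recovered from the FPKM steps, with 21138 to 25789 genes above 0. Wrn measured 0.387 and 0.425 FPKM in G1DM and 0.0802, 0.274 and 0.599 in G5DM, below the filter, and Terc was listed at 0 apart from 0.109 FPKM in G5DM replicate 2. Terc has no polyA tail, so it checks little in a polyA library. The fibroblast collagen Col1a1 stood at 1036 to 2158 FPKM in the 5 libraries. There the epithelial marker Epcam reached 0.153 and the endothelial marker Pecam1 0.141, but other members of their lists were higher. Summed FPKM was 29.0 to 73.5 over 17 epithelial genes and 27.0 to 59.6 over 18 endothelial genes. G1DM replicate 1 and G5DM replicates 2 and 3 expressed Y-linked genes, and G1DM replicate 2 and G5DM replicate 1 expressed Xist. Sex and G5DM replicate 1 therefore cannot be told apart within generation 5.

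G5DM replicate 1 stood apart from the rest of its group. Over the tested genes, the root mean square (RMS) difference in log2(FPKM + 1) between G5DM replicates 2 and 3 was 0.324, against 0.707 and 0.800 from replicate 1 to each of them. Replicate 1 lay nearer to the 2 G3DM libraries, at 0.503 and 0.506, than to either G1DM library, at 0.685 and 0.653. Replicates 2 and 3 lay 0.472 to 0.510 from the G1DM libraries, close to the 0.495 between the 2 G1DM libraries themselves. The base composition of genes differed between libraries too. Across 12511 tested genes, the Spearman correlation of a library's difference from the G1DM mean with the GC content of the gene was 0.47 for replicate 1, -0.27 for replicate 2 and -0.38 for replicate 3. The difference between the G1DM libraries, replicate 1 minus replicate 2, had a coefficient of 0.27, as large in size as that of G5DM replicate 2. Genes are not independent replicates, and these coefficients describe the libraries. The part of base composition, sex or culture in this split was not tested.

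**Figure D1:**
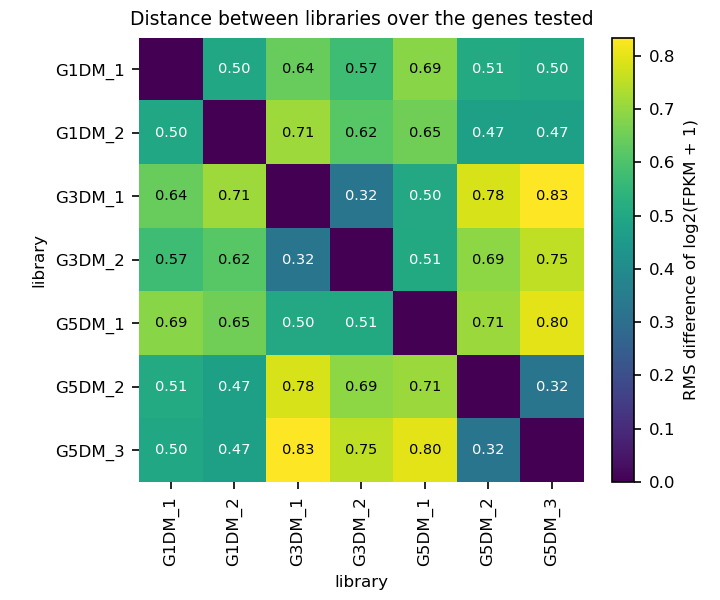
RMS difference in log2(FPKM + 1) over 12516 genes for each pair of the 7 libraries with wild-type p53 (both axes: libraries; colour and printed value: RMS difference). G5DM replicates 2 and 3 are 0.324 apart, whereas replicate 1 is 0.707 and 0.800 from them.

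Few genes passed the test between generations 5 and 1. A gene was called changed at an adjusted p under 0.05, from a limma model of log2(FPKM + 1) with Benjamini-Hochberg adjustment over all 12516 genes. The model took its spread from all 15 libraries, including 8 with mutant p53, titled TM. This called 8 genes, 0.0639% of those tested, of which 1 rose (0.00799%) and 7 fell (0.0559%). At an unadjusted p under 0.05 there were 643 genes (5.14%), 344 of them higher (2.75%) and 299 lower (2.39%). In 1610 genes (12.9%) the groups did not overlap, with all 3 G5DM libraries above both G1DM libraries in 739 (5.9%) and below them in 871 (6.96%). The 8 called genes included the limb regulators Hoxc10 and Tbx4, the ligand-activated receptor Ahr and the cholesterol exporter Abcg1. The other 4 were the histone gene Hist1h4m and the transcripts Gm37416, Gm3226 and Gm3650. Hoxc10, Tbx4, Hist1h4m and Gm3650 reached 1 FPKM only in G1DM libraries, as 57 of the 12516 tested genes did. These genes passed the filter through the group in which they were high, so their direction was fixed by it.

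Hoxc10 (ENSMUSG00000022484, chromosome 15, 102966796 to 102971893), a homeobox gene of the hindlimb and lower trunk, measured 6.70 and 4.28 FPKM in G1DM and 0.0290, 0.847 and 0.0364 in G5DM. Both G3DM libraries, at 10.1 and 12.8 FPKM, lay above the G1DM libraries, so the low values were those of G5DM. The log2 difference was -2.35 (SE 0.32, adjusted p = 0.0133, limma). Tbx4 (ENSMUSG00000000094, chromosome 11, 85886422 to 85916097), a T-box factor of hindlimb and lung mesenchyme, measured 3.60 and 3.10 FPKM in G1DM and 0.407, 0.326 and 0.490 in G5DM. The 3 G5DM values lay close together, far under both G1DM values and under the 4.20 and 4.26 of G3DM. On the log2 scale Tbx4 fell by 1.63 with an SE of 0.24 (adjusted p = 0.0254, limma).

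Ahr (ENSMUSG00000019256, chromosome 12, 35497974 to 35535038), the aryl hydrocarbon receptor, measured 18.5 and 14.3 FPKM in G1DM and 4.84, 3.84 and 3.63 in G5DM. The G3DM libraries were at 3.43 and 4.97 FPKM, at the level of G5DM. On the log2 scale Ahr fell by 1.77 with an SE of 0.28 (adjusted p = 0.0363, limma). Of the 7 tested genes of its pathway, a list added after the values were seen, Ahr was the 1 called. Its repressor Ahrr was at 1.02 and 0.943 FPKM in G1DM and at 0.411, 0.210 and 0.177 in G5DM, below the filter for testing. The target Cyp1b1, a cytochrome P450, did not follow: at 50.4 and 33.3 FPKM in G1DM and 25.9, 67.8 and 54.1 in G5DM, it had replicate 1 under and replicates 2 and 3 over both G1DM values.

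Abcg1 (ENSMUSG00000024030, chromosome 17, 31057698 to 31115777), a transporter that moves cholesterol out of cells and a target of the liver X receptors, was the gene that rose. Its level was 1.22 and 1.59 FPKM in G1DM, 5.23, 6.21 and 8.95 in G5DM, and 10.6 and 8.95 in G3DM. The log2 difference was 1.68 (SE 0.25, adjusted p = 0.0254, limma). Among 10 tested liver X receptor targets and export genes, again a list added after the values were seen, Abcg1 was the 1 called. Apoe, the lipid carrier of fibroblasts and macrophages, measured 19.6 and 21.8 FPKM in G1DM and 70.2, 60.5 and 61.0 in G5DM, without overlap but with an adjusted p of 1.00 in limma. Apoe ran from 12.9 to 206 FPKM in the 3 G3TM libraries, which share the spread of the fit. A fit without the G3TM and G5TM libraries, added after the data were seen, called it higher (adjusted p = 0.0126, limma). This was the 1 of 18 alternatives that called Apoe. The fits of only the 5 libraries and of the 7 libraries with wild-type p53, which also leave out G3TM and G5TM, did not. Abca1, the partner exporter, overlapped between groups, at 8.59 and 3.76 FPKM in G1DM and 5.60, 8.56 and 14.5 in G5DM.

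The remaining called transcripts come with limits on their identity. Hist1h4m (ENSMUSG00000069306, chromosome 13, 21811746 to 21812147), a histone H4 gene, measured 4.99 and 5.03 FPKM in G1DM and 0.276, 0.230 and 0.173 in G5DM. It had the lowest adjusted p of the comparison, 0.000269 (log2 difference -2.29, SE 0.20, limma), but H4 genes are near-identical copies whose reads the counting could divide. Gm37416 (chromosome 2, 16023108 to 16023425), a short transcript of unknown coding status, measured 24.7 and 20.8 FPKM in G1DM and 2.44, 3.49 and 4.70 in G5DM. The processed pseudogene Gm3226 was at 10.5 and 14.3 FPKM in G1DM and at 1.45, 0.895 and 0.906 in G5DM. The pseudogene Gm3650 was at 3.43 and 2.25 FPKM in G1DM, was listed at 0 in G5DM replicate 1, and was at 0.309 and 0.372 in replicates 2 and 3. Their log2 differences were -2.41, -2.68 and -1.64, in that order, and reads of pseudogenes can be shared with their parent genes. In G3DM, Gm3226 was near the G5DM level, at 1.75 and 1.74 FPKM, while Hist1h4m was near that of G1DM, at 5.45 and 3.09.

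**Figure D2:**
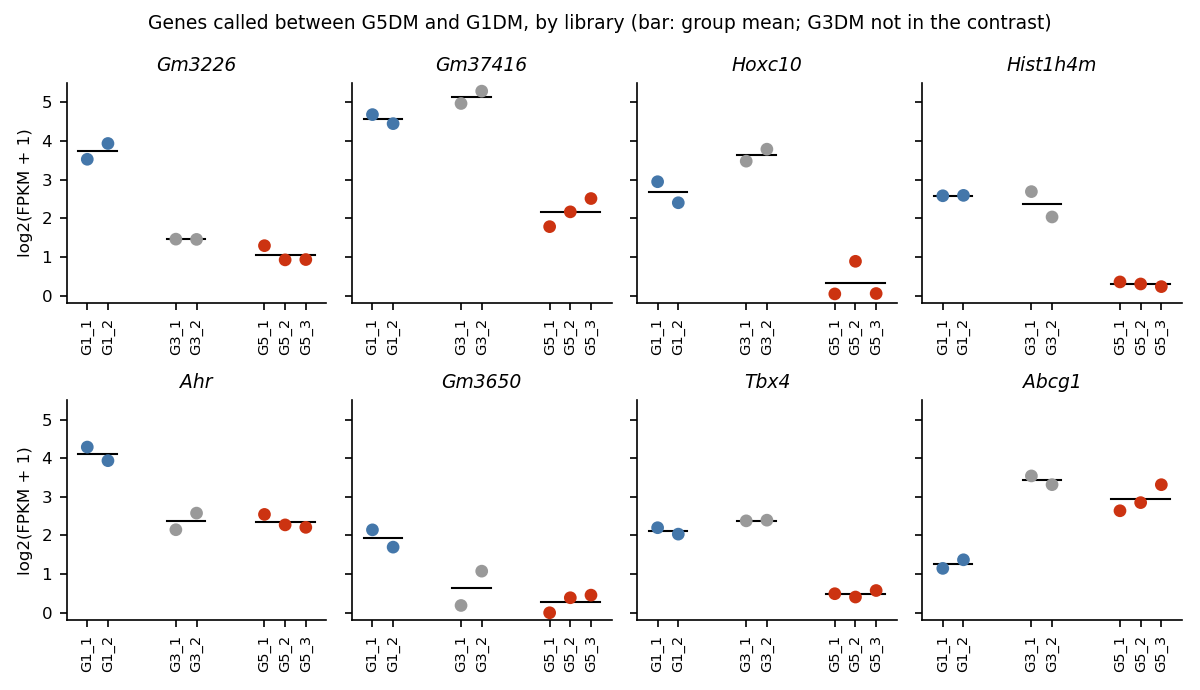
log2(FPKM + 1) (vertical axis) of the 8 called genes in each of the 7 libraries with wild-type p53 (horizontal axis; blue G1DM, grey G3DM, red G5DM; bars are group means of the log2 values). In every panel the 3 G5DM points lie on 1 side of both G1DM points. G3DM lies with G5DM for Ahr, Gm3226 and Abcg1 and with G1DM for Hoxc10, Tbx4, Hist1h4m and Gm37416.

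These calls rest on few libraries. A fit of only the 5 libraries called 2 genes (0.016%), and none of the 8 was among them. In that fit the adjusted p of the 8 genes ran from 0.06 for Gm3226 to 0.45 for Gm3650 (limma). Leaving out a G1DM library leaves 1 library in that group, so only the log2 differences are read. All 8 kept their direction, which could not change because the groups did not overlap in any of them. Leaving out G5DM replicate 1 gave 159 called genes (1.27%), with all 8 genes among them. The adjusted p of Ahr ran from 0.00762 to 0.369 over 18 alternatives, and that of Hist1h4m from 5.04e-05 to 0.0721 over 17.

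Beyond Hoxc10, the posterior Hox genes stood low together in generation 5. Of the 16 listed genes of paralogue groups 9 to 13, 14 had every G5DM library below both G1DM libraries, and Hoxc10 was the 1 called. The share of all 54495 listed genes in this order is not given here, so the 14 of 16 is a description only. Of the 11 that were tested, Hoxa13, Hoxc10, Hoxd9 and Hoxd11 reached 1 FPKM only in G1DM libraries and passed the filter through them, so nothing is read from the 11 of 11 in this order beside 6.96% of all tested genes. Summed over the 16 listed genes of these groups, FPKM was 75.2 and 57.2 in G1DM, 86.3 and 98.0 in G3DM, and 5.65, 22.3 and 28.2 in G5DM. The 3 G5DM sums were thus the lowest of the 7. The genes named below were chosen after their values were seen.

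Hoxa10, a gene of the proximal limb and the reproductive tract, measured 10.5 and 6.63 FPKM in G1DM, was listed at 0 in G5DM replicate 1, and stood at 0.664 and 2.63 in replicates 2 and 3. Hoxa11, which patterns the forearm and shank segment, measured 3.75 and 3.65 FPKM in G1DM and 0.182 and 1.08 in G5DM replicates 2 and 3, and was listed at 0 in replicate 1. Hoxa13, needed for hand and foot, measured 2.67 and 2.85 FPKM in G1DM, was listed at 0 in G5DM replicates 1 and 2, and was at 0.646 in replicate 3. In each of the 3 genes replicate 3 was the highest G5DM library and still lay under both G1DM libraries. Their adjusted p-values were 0.0778, 0.0685 and 0.0778 in limma, so none of them was called. Without G5DM replicate 1 these were 0.0267, 0.0317 and 0.0357. In that fit 4 genes of the 30 tested Hox genes were called lower in place of 1, beside 0.28% of all tested genes in place of 0.0559%. Hoxa13 and Hoxc10 were among the 4, and their direction was fixed by the filter. Each of the 3 genes was called in 4 alternatives and was not called in 14, 13 and 13, in that order.

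Hoxd13, the digit gene of the HoxD cluster, measured 9.43 and 9.82 FPKM in G1DM and 0.0223, 0.0744 and 2.35 in G5DM. Its log2 difference, -2.78, was the largest of the group in size, but its spread was also large (SE 0.70, adjusted p = 0.282, limma). Hoxd10 measured 3.10 and 2.87 FPKM in G1DM, was listed at 0 in G5DM replicate 1, and was at 0.254 and 1.49 in replicates 2 and 3. Hoxb9, a gene of the thorax, was the least separated member: it stood at 24.9 and 18.0 FPKM in G1DM and at 4.28, 17.1 and 15.0 in G5DM. The other tested genes of these groups, Hoxa9, Hoxc9, Hoxd9 and Hoxd11, had log2 differences of -0.95, -1.19, -0.69 and -1.01, and none passed the test.

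Groups 1 to 8, which mark more anterior and proximal positions, divided the G5DM libraries instead. Over 23 listed genes the summed FPKM was 96.3 and 47.8 in G1DM, 113 and 124 in G3DM, and 83.7 and 128 in G5DM replicates 2 and 3, against 4.43 in G5DM replicate 1. Of the 19 tested genes, 18 lay below both G1DM libraries in replicate 1, while 1 did in replicate 2 and 0 in replicate 3, beside 35.9%, 33.5% and 36.5% of all tested genes. Hoxa5 measured 10.8 and 4.70 FPKM in G1DM and 10.5 and 17.9 in G5DM replicates 2 and 3, and was listed at 0 in replicate 1. Hoxc6 measured 10.7 and 5.16 FPKM in G1DM and 0.299, 10.6 and 16.3 in G5DM. In replicate 1, 8 of the 23 genes of groups 1 to 8 and 10 of the 16 of groups 9 to 13 were listed at 0, and Hoxd8 and Hoxb9, at 1.86 and 4.28 FPKM, were the 2 at 1 FPKM or more.

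**Figure D3:**
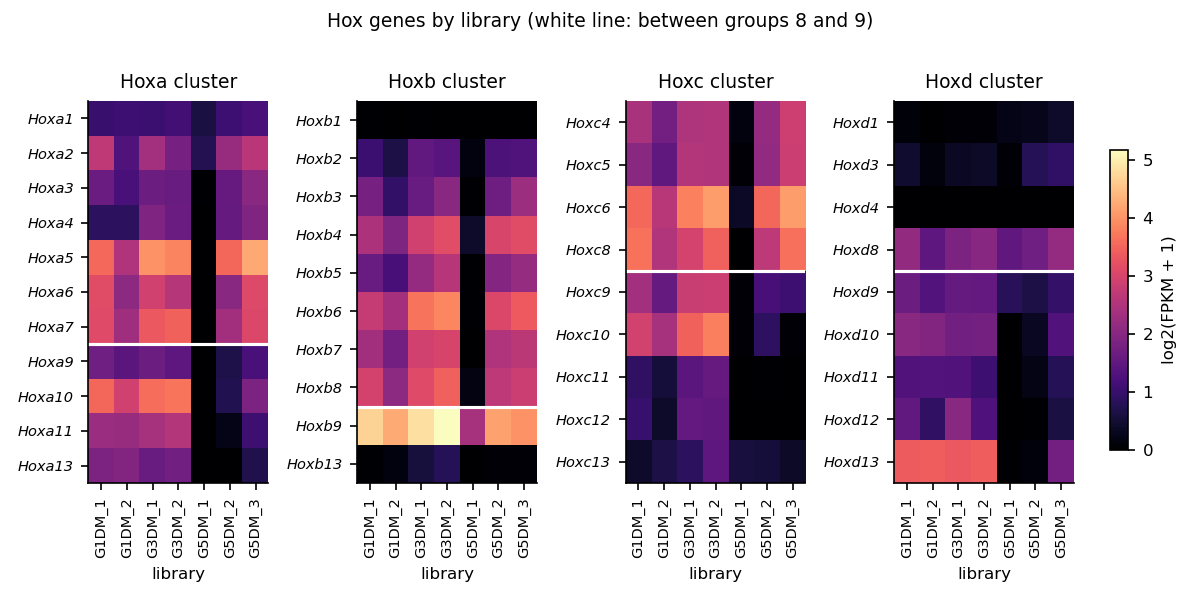
log2(FPKM + 1) (colour) of the 39 listed Hox genes (rows, by cluster) in the 7 libraries with wild-type p53 (columns); the white line lies between groups 8 and 9. Below the line the 3 G5DM columns are darker than both G1DM columns in all rows but Hoxb13 and Hoxc13, and above it G5DM replicate 1 is the darkest column in most rows, with a summed FPKM of 4.43 over groups 1 to 8.

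In place of Hox genes, G5DM replicate 1 had high levels of factors known from head and facial mesenchyme, most of which is Hox-negative in the embryo. Summed over 26 such genes, a list added after the values were seen, FPKM was 171 in replicate 1, 41.4 and 32.2 in replicates 2 and 3, and 51.7 to 64.2 in the 4 libraries of generations 1 and 3. Of the 26 genes, 21 were highest in replicate 1 among the 7 libraries with wild-type p53, which describes genes chosen with these values known. Barx1, a homeobox factor of jaw, teeth and stomach mesenchyme, measured 28.2 FPKM in replicate 1, against 3.37 and 0.496 in replicates 2 and 3 and 3.05 and 3.04 in G1DM. Msx1, a factor of facial and limb mesenchyme, measured 19.3 FPKM there, against 2.24 and 1.27 in replicates 2 and 3 and 5.29 and 5.85 in G1DM. Lhx8 and Six2, further factors of facial or skull mesenchyme, measured 7.92 and 18.6 FPKM in replicate 1 and at most 5.30 in the other 6 libraries. These are levels of 1 library and were not tested.

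Of the 47 tested limb and mesenchyme identity factors, Tbx4 was the 1 called, and the median log2 difference was -0.03. The groups did not overlap in 3 of them with G5DM higher and in 4, Tbx4 included, with G5DM lower. These counts are close to the 5.9% and 6.96% of all tested genes. Pitx1, which acts upstream of Tbx4 in the hindlimb, measured 7.45 and 4.91 FPKM in G1DM and 13.4, 1.98 and 0.275 in G5DM. Its part in the level of Tbx4 was not tested. Tbx5, the forelimb counterpart, measured 2.96 and 1.33 FPKM in G1DM and 0.0356, 0.741 and 2.19 in G5DM. By the rule used for naming, the genes highest in G5DM replicate 1 against both other G5DM libraries were Gm9780, Barx1, Sfn, Msx1, Tnn and Stmn2, and the lowest were Gm17622, Hoxa5, Hoxc6, C1qtnf3, Dpt and Hoxb6.

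Nearly all macrophage markers were above both G1DM libraries in all 3 G5DM libraries, though no member passed the test. Over the 20 listed genes 19 showed this order, which is a description only. The share of all 54495 listed genes in this order is not given here. Of the 14 that were tested, 7 had 1 FPKM or more only in G5DM libraries and passed the filter through them, so nothing is read from the 14 of 14 in this order beside 5.9% of all tested genes. At an unadjusted p under 0.05 there were 5 members. Summed FPKM over the 20 genes was 11.4 and 26.9 in G1DM, 29.8 and 35.8 in G3DM, and 71.4, 93.2 and 107 in G5DM. Lyz2, the lysozyme of macrophages, measured 3.31 and 10.8 FPKM in G1DM and 33.3, 47.6 and 61.4 in G5DM (log2 difference 2.72, SE 1.24, adjusted p = 0.951, limma). Ctss, a lysosomal protease of antigen-presenting cells, measured 0.314 and 1.49 FPKM in G1DM and 3.39, 6.05 and 6.83 in G5DM (adjusted p = 0.874, limma). G5DM replicate 1 did not stand apart here, and its value was the lowest of the 3 for both genes.

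The defining genes of the lineage were present at low levels. Csf1r, the receptor for the macrophage growth factor, measured 0.288 and 0.924 FPKM in G1DM and 1.52, 2.42 and 2.49 in G5DM. Adgre1, which encodes the F4/80 antigen, measured 0.224 and 0.491 FPKM in G1DM and 1.16, 1.24 and 1.51 in G5DM, and Cd68 measured 1.87 and 2.74 against 5.42, 5.58 and 5.91. Ptprc, the pan-leukocyte antigen CD45, was at most 0.108 FPKM in any of the 5 libraries. In bulk RNA, more cells of a type and more RNA per cell cannot be told apart. Abcg1 and Apoe, described above, are also expressed by macrophages. In the G3DM libraries Abcg1 was at 10.6 and 8.95 FPKM and the summed macrophage markers were 29.8 and 35.8. The part of macrophages in the levels of Abcg1 and Apoe was not tested.

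Immediate early genes, which are switched on within minutes by serum and stress, tended to stand lower in generation 5. None of 22 tested members was called. At an unadjusted p under 0.05, 13 were lower, beside 2.39% of all tested genes, and in 12 all 3 G5DM libraries lay below both G1DM libraries, beside 6.96% of all tested genes. The median log2 difference was -0.61, and 2 members passed the filter through G1DM libraries alone. Egr1, a zinc finger factor induced by growth signals, measured 63.1 and 43.2 FPKM in G1DM and 15.2, 4.97 and 9.04 in G5DM (log2 difference -2.43, SE 0.62, adjusted p = 0.284, limma). Fos, a subunit of AP-1, measured 13.2 and 6.67 FPKM in G1DM and 2.38, 2.71 and 2.29 in G5DM (log2 difference -1.59, SE 0.36, adjusted p = 0.178). The 3 G5DM libraries were alike for Fos, and for Egr1 replicate 1 was the highest of them.

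Further members are named after their values were seen. Egr3, a relative of Egr1, measured 4.15 and 2.46 FPKM in G1DM and 0.604, 0.388 and 0.433 in G5DM. It passed the filter through G1DM libraries alone, so its direction was fixed by it. Zfp36, which speeds the decay of inflammatory mRNAs, measured 14.1 and 12.8 FPKM in G1DM and 8.27, 5.16 and 4.26 in G5DM, and Ier2 measured 41.1 and 34.9 against 27.5, 9.74 and 10.4. Without G5DM replicate 1, Zfp36 and Ier2 fell by 1.34 and by 1.81 on the log2 scale (adjusted p = 0.00721 each, limma). In that fit 3 members of the list were called lower, beside 0.28% of all tested genes. Other members did not follow: the groups overlapped for Myc, Klf4, Ier3 and Fosl1. In G3DM, Egr1 stood at 10.8 and 12.3 FPKM, near G5DM, whereas Zfp36 stood at 12.3 and 11.7, near G1DM.

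Interferon-stimulated genes, which cells switch on through the factor complex ISGF3 or related factors, were high in G5DM replicates 2 and 3 and not in replicate 1. None of the 28 tested members was called over all 5 libraries, 13 reached an unadjusted p under 0.05 (2.75% of all tested genes did so in this direction), and 11 passed the filter through G5DM libraries alone. Taken library by library, the median difference from the G1DM mean was -0.08 in replicate 1, 1.23 in replicate 2 and 0.93 in replicate 3. Of the 28 genes, 27 lay above both G1DM libraries in replicate 2 and 25 in replicate 3, but 5 did in replicate 1, where 8 lay below both. Over all tested genes, 30.4% lay above both in replicate 2, 29.2% in replicate 3 and 43.4% in replicate 1, where 35.9% lay below both. The summed FPKM of the 48 listed genes was 98.6 and 63.7 in G1DM, 111 and 85.3 in G3DM, and 73.4, 242 and 180 in G5DM. Without replicate 1, 13 of the 28 were called higher, against 0.991% of all tested genes. The 11 admitted through G5DM libraries alone had to lie above both G1DM libraries in at least 2 G5DM libraries. Nothing is therefore read from the counts over the 28, while the sums over the 48 listed genes do not depend on the filter.

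The regulatory sequence shared by many of these genes is shown because it is the element through which the group is known to be switched on. The interferon-stimulated response element has as its core a pair of GAAA half-sites, here searched in the same direction with 2 bases of any kind between them. This core was searched on both strands in the 250 bases upstream of gene starts (RefSeq, GRCm38.p6), overlapping matches included. It was found in 978 of 32851 windows (2.98%), counted by window. Of the 21 tested list members that had a window, 11 held it in at least 1 of their windows. This second count is by gene, so the 2 shares are not in the same unit. In the 3 windows below, read 5′ to 3′ on the strand of the gene, capitals mark the matches and the last base adjoins the start of the gene. They lie at chr4:156200819-156201068 on the minus strand for Isg15, at chr19:34640639-34640888 on the plus strand for Ifit1, and at chr19:34583279-34583528 on the plus strand for Ifit3.
Isg15: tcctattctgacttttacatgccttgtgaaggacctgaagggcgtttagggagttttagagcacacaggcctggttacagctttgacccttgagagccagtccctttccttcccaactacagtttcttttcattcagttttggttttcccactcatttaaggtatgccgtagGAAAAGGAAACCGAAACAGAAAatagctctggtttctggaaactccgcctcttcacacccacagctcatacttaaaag
Ifit1: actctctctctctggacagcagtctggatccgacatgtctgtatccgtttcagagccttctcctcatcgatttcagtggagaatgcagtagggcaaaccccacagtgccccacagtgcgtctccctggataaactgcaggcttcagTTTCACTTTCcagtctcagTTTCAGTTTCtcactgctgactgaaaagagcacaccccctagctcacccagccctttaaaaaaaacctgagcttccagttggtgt
Ifit3: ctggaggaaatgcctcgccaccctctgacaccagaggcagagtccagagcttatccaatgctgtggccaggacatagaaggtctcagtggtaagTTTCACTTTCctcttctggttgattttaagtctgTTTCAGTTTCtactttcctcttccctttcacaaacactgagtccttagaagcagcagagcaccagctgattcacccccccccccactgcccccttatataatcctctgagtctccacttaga
Isg15 held 3 overlapping matches, the last beginning 66 bases before the start, and Ifit1 and Ifit3 held 2 each, on the opposite strand. A match describes the letters of the window and is not a measured binding site.

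Isg15, a ubiquitin-like protein attached to others in antiviral defence, measured 1.92 and 1.19 FPKM in G1DM and 2.49, 17.8 and 11.2 in G5DM. Over all 5 libraries its log2 difference was 1.87 (SE 0.65, adjusted p = 0.625, limma), and without replicate 1 it was 2.58 (adjusted p = 0.0404). Ifit1, which binds foreign RNA caps, measured 1.28 and 0.405 FPKM in G1DM and 0.668, 9.04 and 4.82 in G5DM. Ifit3 measured 2.32 and 1.31 FPKM in G1DM and 1.56, 10.3 and 6.01 in G5DM. In both genes replicate 1 lay within the G1DM range, and replicates 2 and 3 lay above it.

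Bst2, a tether of enveloped viruses, measured 7.79 and 5.00 FPKM in G1DM and 12.5, 24.6 and 25.6 in G5DM, so here replicate 1 was above G1DM too. Usp18, which removes Isg15 from its targets, measured 0.382 and 0.200 FPKM in G1DM and 0.417, 2.88 and 1.93 in G5DM. It reached 1 FPKM only in G5DM replicates 2 and 3 and passed the filter through them. The interferon gene Ifnb1 was listed at 0 in all 5 libraries. The median GC content was 41.1% for the 124 genes called higher without replicate 1, 47.5% for the tested interferon list and 49.7% for all tested genes. With each library corrected for the GC content and length of genes and replicate 1 left out, 9 interferon genes were called in place of 13, and 58 genes in all in place of 159.

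**Figure D4:**
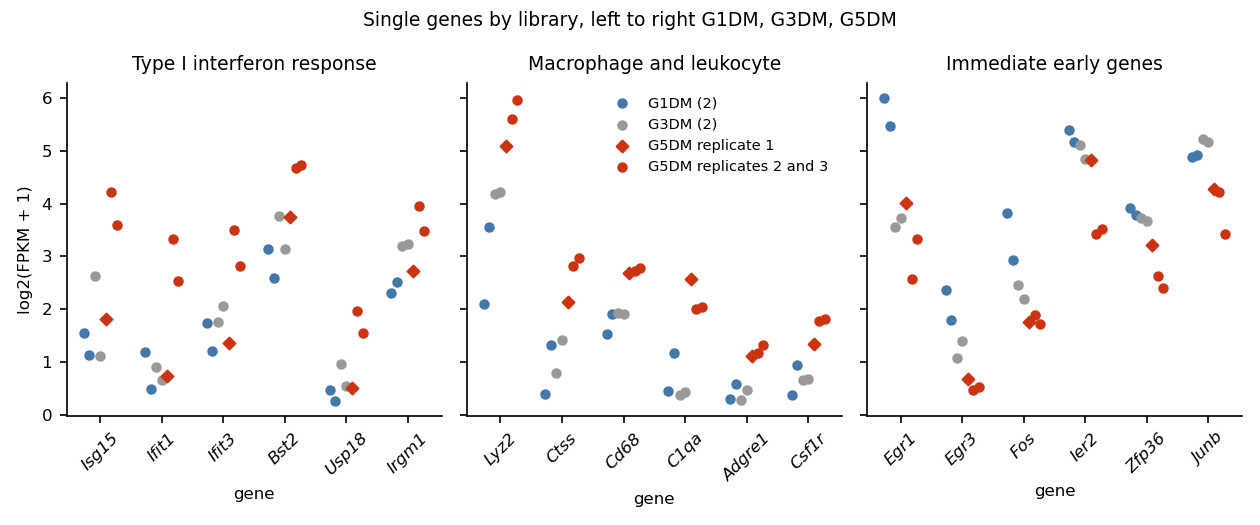
log2(FPKM + 1) (vertical axis) of 6 genes each of the interferon, macrophage and immediate early groups (horizontal axis), 1 point per library (blue G1DM, grey G3DM, red G5DM, diamond for G5DM replicate 1). Isg15, Ifit1 and Ifit3 are high in G5DM replicates 2 and 3. Lyz2 and Ctss are above both G1DM libraries in all 3 G5DM libraries, and Egr3 and Fos are below both. Egr3 passed the filter through G1DM libraries alone.

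The 159 genes called without G5DM replicate 1 therefore describe replicates 2 and 3. Of the 124 higher ones (0.991% of tested genes), 23 were also above both G1DM libraries in replicate 1 and 73 were below both, beside 43.4% and 35.9% of all tested genes. Of the 35 lower ones (0.28%), 26 were also below both in replicate 1, beside the same 35.9%. Nrk, an X-linked kinase gene chosen after its values were seen, measured 3.27 and 3.33 FPKM in G1DM and 2.70, 20.1 and 23.8 in G5DM. The chemokine Ccl11, also chosen after its values were seen, measured 0.631 and 0.358 FPKM in G1DM and 0.205, 13.2 and 3.66 in G5DM. It reached 1 FPKM only in replicates 2 and 3 and passed the filter through them, so its direction there was fixed by it. Among the 124 were 3 Y-linked genes, since replicates 2 and 3 both expressed the Y and G1DM held 1 library that did.

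Secreted factors of senescence gave no call among 38 tested genes, with a median log2 difference of 0.17. Ccl8 and Ccl2, chemokines that draw monocytes, had the largest differences. Ccl2 measured 10.4 and 27.5 FPKM in G1DM and 44.2, 121 and 56.6 in G5DM (log2 difference 1.92, SE 0.43, adjusted p = 0.17, limma), and was called without replicate 1 (adjusted p = 0.0265). Ccl8 measured 0.584 and 0.842 FPKM in G1DM and 3.47, 21.9 and 2.58 in G5DM (adjusted p = 0.354). Both were above G1DM in all 3 G5DM libraries and highest in replicate 2. Ccl8 reached 1 FPKM only in G5DM libraries and passed the filter through them, so its direction was fixed by it. Cdkn2a, the locus of p16 and p19ARF, was below both G1DM libraries, at 34.0, 25.6 and 15.3 FPKM against 44.5 and 38.8, with an adjusted p of 1.00.

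The p53 pathway showed no call between the generations. Trp53 measured 34.3 and 38.6 FPKM in G1DM and 57.1, 32.2 and 34.9 in G5DM. Cdkn1a, the p53 target that arrests the cell cycle, measured 111 and 116 FPKM in G1DM and 216, 131 and 86.2 in G5DM, with replicates on both sides of the G1DM values. Mdm2, which degrades p53, measured 25.1 and 42.6 FPKM in G1DM and 23.6, 50.6 and 37.4 in G5DM. Of 48 tested p53-activated genes 0 were called, 6 were higher and 1 lower at an unadjusted p under 0.05 (2.75% and 2.39% of all tested genes), and the median log2 difference was 0.19.

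The 2 members with the largest differences were Pmaip1, which encodes the pro-apoptotic protein Noxa, and Dcxr, a sugar reductase. Pmaip1 measured 10.0 and 11.5 FPKM in G1DM and 14.3, 26.5 and 20.0 in G5DM (log2 difference 0.82, SE 0.27, adjusted p = 0.588, limma). Dcxr measured 15.2 and 12.1 FPKM in G1DM and 39.0, 23.1 and 16.3 in G5DM. The groups did not overlap in either gene.

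Targets of DREAM and MMB, the complexes that repress and activate cell cycle genes, were also without calls. None of 65 tested G2/M targets reached even an unadjusted p under 0.05, and their median log2 difference was 0.13. By library the median was -0.08 in replicate 1, -0.09 in replicate 2 and 0.46 in replicate 3, where 45 of the 65 lay above both G1DM libraries, beside 29.2% of all tested genes. Of 52 tested G1/S targets 0 were called and 3 were higher at an unadjusted p under 0.05 (2.75% of all tested genes), and of 32 telomere replication genes 0 were called and 0 reached it, with medians of 0.16 and 0.10. The MMB subunit gene Mybl2 measured 2.12 and 5.21 FPKM in G1DM and 5.55, 1.91 and 3.40 in G5DM. Its partner Foxm1 measured 9.36 and 16.8 FPKM in G1DM and 14.0, 9.15 and 14.6 in G5DM. For Mybl2 the 2 G1DM libraries differed by more than the group means did, so a small difference between generations was not detectable with these libraries.

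**Figure D5:**
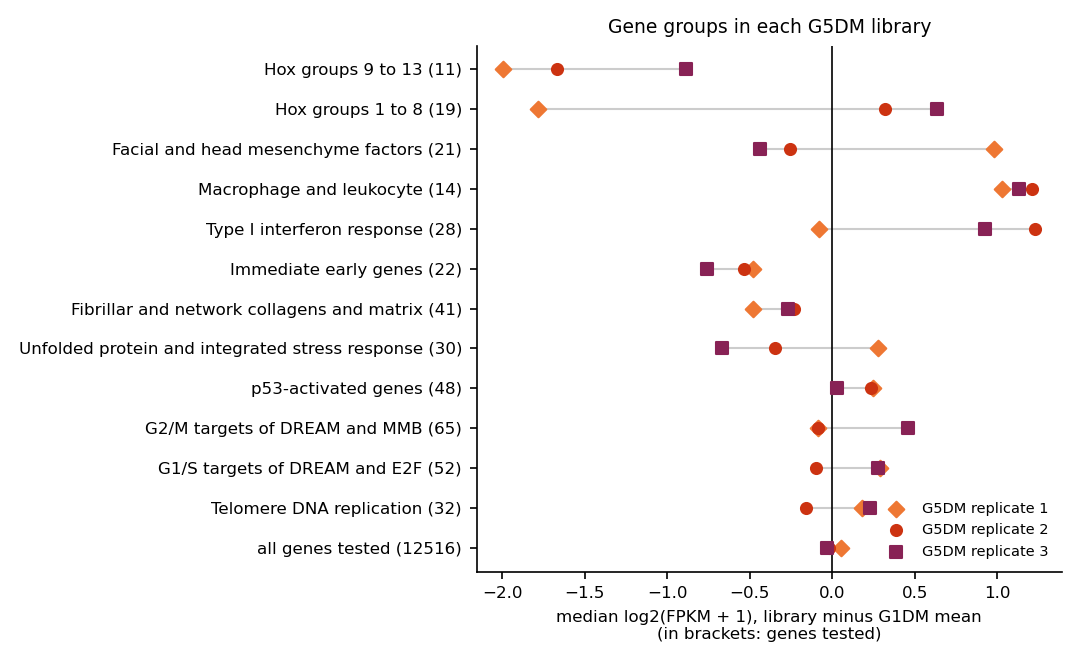
Median log2(FPKM + 1) difference from the G1DM mean over the tested genes of 12 gene groups and of all tested genes (horizontal axis), for each G5DM library (diamond, circle and square; the line joins the lowest and highest). The 3 libraries lie together for the macrophage and immediate early groups and apart for Hox groups 1 to 8, the facial factors and the interferon genes.

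Matrix genes gave no call either, with 9 of 41 tested members lower and 1 higher at an unadjusted p under 0.05 (2.39% and 2.75% of all tested genes) and a median log2 difference of -0.33. Col5a3, a minor fibrillar collagen, measured 22.6 and 14.0 FPKM in G1DM and 6.40, 4.32 and 3.79 in G5DM (log2 difference -1.71, SE 0.46, adjusted p = 0.342, limma). Fbn2, a microfibril protein of the embryo, measured 156 and 43.2 FPKM in G1DM and 26.3, 33.8 and 46.0 in G5DM, with G1DM replicate 2 inside the range of G5DM. Col6a3, a subunit of microfibrillar collagen VI named after its values were seen, measured 156 and 96.3 FPKM in G1DM and 65.9, 55.4 and 66.7 in G5DM. The G5DM libraries were alike in Col6a3 and below both G1DM libraries.

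Cartilage genes were few in these cells, with 13 of 26 listed members tested. None was called, and 3 were lower at an unadjusted p under 0.05 (2.39% of all tested genes). The groups did not overlap in 5, all lower in G5DM (6.96% of all tested genes). The median log2 difference was -0.46, and 2 of the 13 passed the filter through G1DM libraries alone. Col10a1, the collagen of hypertrophic cartilage, measured 11.6 and 9.92 FPKM in G1DM and 1.89, 1.55 and 3.33 in G5DM. It missed the threshold (log2 difference -1.88, SE 0.32, adjusted p = 0.0607, limma) and was called without G5DM replicate 1 (adjusted p = 0.0284). Col2a1, the main collagen of cartilage, measured 64.0 and 50.0 FPKM in G1DM and 27.2, 16.7 and 37.7 in G5DM. In both genes the G5DM libraries were the 3 lowest of the 7. Spp1, the matrix protein osteopontin, named after its values were seen, went the other way in part: it was at 170 and 374 FPKM in G1DM and at 188, 914 and 721 in G5DM, and it was called higher without replicate 1 (adjusted p = 0.041). With Spp1 included, the summed FPKM of the list was 351 and 497 in G1DM and 258, 991 and 850 in G5DM.

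Genes of the unfolded protein and integrated stress responses had median differences from the G1DM mean of 0.28 in G5DM replicate 1, -0.35 in replicate 2 and -0.67 in replicate 3. Slc7a5, a transporter of large amino acids induced by the integrated stress response, measured 56.4 and 42.0 FPKM in G1DM and 55.8, 14.0 and 12.3 in G5DM. Asns, asparagine synthetase, named after its values were seen, measured 51.3 and 35.0 FPKM in G1DM and 56.2, 15.5 and 10.1 in G5DM. Without replicate 1 both fell, by 1.82 and by 1.68 on the log2 scale (adjusted p = 0.0117 and 0.034, limma), whereas 0 of the 30 tested stress genes were called over all 5 libraries. Trib3, a target of the same response, measured 23.2 and 4.84 FPKM in G1DM and 17.5, 3.54 and 1.44 in G5DM, so each group spanned a wide range and the ranges overlapped.

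Glycolytic genes, with 22 tested, gave 0 calls and a median log2 difference of -0.07. Pfkfb3, which makes the activator of phosphofructokinase, measured 4.28 and 5.92 FPKM in G1DM and 12.3, 20.2 and 16.2 in G5DM, and the glucose transporter gene Slc2a1 measured 37.8 and 53.7 against 84.2, 86.5 and 73.5. All 3 G5DM libraries were above both G1DM libraries in the 2 genes. Their adjusted p-values were 0.12 and 0.621 in limma, and without replicate 1 Pfkfb3 was called (adjusted p = 0.0233). Cd34, a surface marker of mesenchymal and endothelial progenitors chosen after its values were seen, measured 8.95 and 6.20 FPKM in G1DM, 17.1 and 19.7 in G3DM, and 18.6, 17.2 and 20.2 in G5DM. Its adjusted p was 0.0778 in limma, with no overlap between the groups.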

How the data were processed

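PolyA RNA of MEFs was sequenced. The authors deposited 1 table of FPKM for 15 libraries, each gene with its length. DESeq2 1.20.0, HISAT2 2.0.5, fastp and featureCounts 1.5.0-p3 are listed, without roles, in the submitters' processing notes, as is CASAVA 1.8. The authors' build is not given in the sources used here. Coordinates are those of the deposited table and equal GENCODE vM21 (GRCm38) for 98.3% of 54495 identifiers. FPKM times gene length gave whole multiples of 1 step per library within 0.05 for 100% of values, from which read numbers were recovered.

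Groups came from sample titles. In limma 3.58.1, run in R 4.3.3, the 15 libraries were fitted as 6 group means on log2(FPKM + 1) (moderated by empirical Bayes, with a trend on intensity) for the contrast G5DM minus G1DM. Two-sided p-values were adjusted by Benjamini-Hochberg over 12516 genes. Fold changes on this scale understate changes of low genes. The fit was tested on simulated data. Python 3.11.15, numpy 2.4.6, pandas 2.3.3 and matplotlib 3.10.9 handled tables and plots.

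Named genes were Wrn, Terc, Trp53, Mdm2, Cdkn1a, Cdkn2a, Foxm1 and Mybl2, up to 12 largest called rises and 12 falls among protein-coding genes whose mean in a group was at least 5 FPKM, up to 6 called or the 2 largest members of lists described beyond counts, and the 6 genes highest and lowest in G5DM replicate 1. Members and lists were chosen with earlier results of these data known, and 3 of 38 lists were added after their values were seen here.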

Additional observations from a re-analysis of the deposited data

How the results depend on the processing

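Over the alternatives, the count of 8 genes (1 higher, 7 lower) became 77 (18, 59) with no filter on low values, 2 (0, 2) with a filter of 5 FPKM, 2 (1, 1) in a fit of only the 5 libraries, 1 (0, 1) in a fit of the 7 DM libraries, 30 (9, 21) after quantile normalization, and 109 (61, 48) with array weights. Chosen after seeing the data, limma voom on recovered reads gave 8 (2, 6), a fit without the G3TM and G5TM libraries 9 (2, 7), correction of each library for GC content and length 12 (3, 9), and that correction without G5DM replicate 1 58 (39, 19). Leaving out 1 library at a time gave 3 to 159 genes, 0 to 124 higher and 2 to 35 lower: 3 without G1DM replicate 1, 4 without G1DM replicate 2, 159 without G5DM replicate 1, 4 without G5DM replicate 2 and 16 without G5DM replicate 3.

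The replicate block, with the number in the titles as a term, called 5 genes (4 lower). The numbers share no stated origin, and same-numbered differences had a correlation of -0.0078 over 12516 genes.

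Called Hox genes, 1 at first, were 0 with the filter of 5 FPKM and in both smaller fits, 5 after quantile normalization, 4 with array weights and 0 to 5 on leaving out 1 library. Called interferon genes, 0 at first, were 12 with array weights, 0 to 13 on leaving out 1 library and 9 with the correction made and G5DM replicate 1 left out. Called immediate early genes, 0 at first, were 1 after quantile normalization, 5 with array weights, 0 to 3 on leaving out 1 library, 1 with the correction made and 3 with replicate 1 also left out. Called p53-activated genes, 0 at first, were 1 with array weights.

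Log2 differences that changed sign were all of genes without a call. Trp53 became -0.12 with array weights and -0.11 without G5DM replicate 1, and Cdkn1a -0.091 without it, with 0.57 as its highest value on leaving out 1 library. Mdm2 became -0.25 without G1DM replicate 1 and -0.13 without G5DM replicate 2. With a sex term Mybl2 became 0.075 and Foxm1 0.027. Without G1DM replicate 2 they became 0.49 and 0.37, without G1DM replicate 1 -0.50 and -0.41, without G5DM replicate 2 0.29 and 0.17, and with the correction made 0.000322 and 0.00233. Foxm1 became 0.00730 with replicate 1 also left out. Trib3 became 0.016 without G1DM replicate 1 (-2.04 without G1DM replicate 2), and Cyp1b1 -0.14 without G1DM replicate 2 and -0.12 without G5DM replicate 2 (0.55 without G5DM replicate 1). The causes were not tested. The 2 planned count models on recovered reads were not run. With 2 and 3 libraries, small differences were not detectable.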
